A study of Mus musculus with 2 samples.

Results

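The muscle microRNAs described here are 7 mouse genes, Mir206, Mir133b, Mir1a-1, Mir133a-1, Mir133a-2, Mir208b and Mir499, out of 1973 microRNA gene rows measured in embryonic limb. They were chosen by name, as the microRNA genes known from skeletal and heart muscle, and all 7 had a row in the count tables. Small RNA shorter than 30 nucleotides was sequenced from limbs of B6NCrl mouse embryos at 12.5 days of development that the labels call healthy. Replicate 1 pooled 88 embryos and replicate 2 pooled 68, with males and females mixed in each pool, so the 2 libraries average over many animals and form a single group. MicroRNA genes received 4525636 counts in replicate 1 and 3604284 in replicate 2. There is no contrast between conditions, and values are means ± SD over the 2 replicates (n = 2) unless a library is named.

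A microRNA gene is transcribed as a long precursor, from which a hairpin is cut and then trimmed to a mature strand that silences messenger RNAs. Pairing to those targets rests mainly on the seed, bases 2 to 8 of the mature strand. The muscle microRNAs, often called myomiRs, are switched on in differentiating muscle by factors such as MyoD and myogenin. In vertebrates miR-1 and miR-206 promote differentiation of myoblasts, miR-133 acts in their proliferation and differentiation, and miR-208b and miR-499 sit in introns of myosin heavy chain genes and act in slow and heart muscle. At this stage the limb holds muscle precursors and the first differentiating muscle fibres among cartilage, connective tissue, vessels and ectoderm.

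The mature strands known as the main products of 4 members, and of the relative Mir208a, are shown because their differences decide which reads can be told apart. They come from RefSeq (GRCm38.p6, the assembly also called mm10), run 5′ to 3′, and have the seed in capitals.
miR-206-3p: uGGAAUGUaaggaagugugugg
miR-133b-3p: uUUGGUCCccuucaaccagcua
miR-208b-3p: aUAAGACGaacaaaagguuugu
miR-208a-3p: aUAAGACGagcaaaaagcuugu
miR-499-5p: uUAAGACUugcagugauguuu
The 5p arms of Mir206 and Mir1a-1 are related as well.
miR-206-5p: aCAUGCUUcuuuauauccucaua
miR-1a-1-5p: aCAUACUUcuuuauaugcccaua

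By seed the 5 main strands shown fall into 4 groups, with miR-206-3p, miR-133b-3p and miR-499-5p each alone among these 5. The miR-208 seed, UAAGACG, was shared by miR-208b-3p and miR-208a-3p, which are identical at 19 of 22 bases. Counted from the 5′ end, the 3 differences from miR-208b-3p to miR-208a-3p were A10G, G16A and U18C, all outside the seed. The seed of miR-499-5p matched that of miR-208b-3p at 6 of 7 bases and differed by G8U, while only 10 of 21 bases matched over the strand. The seed of miR-206-3p was also that of miR-6349 and miR-6382 in the RefSeq table of 1738 mature strands. The main strands of Mir1a-1, Mir133a-1 and Mir133a-2 were not used here, so no seed is called unique to a member. The groups above therefore do not show that the seeds of miR-1 and miR-133a differ from those of miR-206-3p and miR-133b-3p. Bases 1 to 21 of miR-133b-3p, with its seed, are also present in the Mir133a-2 hairpin. The arms miR-206-5p and miR-1a-1-5p were identical at 20 of 23 bases, with differences G5A, C17G and U19C, the first of them in the seed. Of the 7 members, 5 had a mature strand in that table, Mir1a-1 by its 5p arm alone, and 4 had a hairpin.

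Mir206 and Mir133b lie in a single locus on chromosome 1, and their hairpins are shown with the 3p arm in capitals because each count in the tables covers a whole hairpin.
Mir206: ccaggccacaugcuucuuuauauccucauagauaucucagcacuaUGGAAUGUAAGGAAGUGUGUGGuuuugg
Mir133b: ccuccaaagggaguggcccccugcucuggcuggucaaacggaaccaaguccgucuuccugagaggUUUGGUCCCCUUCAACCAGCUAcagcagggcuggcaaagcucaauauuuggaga
The Mir206 hairpin spans 20679010 to 20679082 on the plus strand of mm10 (73 nucleotides), and the Mir133b hairpin spans 20682769 to 20682887 on the same strand (119 nucleotides). A gap of 3686 bases lies between them. Both overlap exons of Gm28653, a long intergenic non-coding RNA (20669882 to 20684298) that RefSeq lists from the same start as Lincmd1 (20669882 to 20682958). Lincmd1 is known as a non-coding RNA of differentiating muscle.

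Among reads assigned to a single gene, Mir206 was the highest of the 7 members. It gave 9937 counts in replicate 1, or 2196 CPM (counts per 1000000 counts on microRNA genes; 95% interval 2153 to 2239), and 9002 counts in replicate 2, or 2498 CPM (2446 to 2550). The mean was 2347 ± 213 CPM, rank 68 of all 1973 gene rows, and Mir206 ranked 68 in replicate 1 and 64 in replicate 2. Its counts made up 94.6% of all member counts in replicate 1 and 95.9% in replicate 2. The intervals of CPM are exact Poisson intervals, those of shares and ratios are exact binomial (Clopper-Pearson), and all cover counting error only, since reads copied by PCR are not independent molecules. In whole tissue, fewer muscle cells and less of the microRNA per cell cannot be told apart.

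Mir133b, the neighbour of Mir206, was far lower. It gave 212 counts (46.8 CPM, 40.8 to 53.6) in replicate 1 and 156 counts (43.3 CPM, 36.8 to 50.6) in replicate 2, a mean of 45.1 ± 2.5 CPM. Both libraries agree within counting error for this gene, and both place it well under Mir206. The Mir206 to Mir133b ratio of counts was 46.9 in replicate 1 (95% interval 40.9 to 54.0) against 57.7 in replicate 2 (49.3 to 68.0), and the difference between the libraries in this ratio had a two-sided Fisher's exact p of 0.0513. Counts were not divided by hairpin length, on the assumption that reads under 30 nucleotides come mainly from the mature arms. Where the reads lie in a hairpin is not recorded, so this was not tested. Per base of hairpin, a setting added with the data already in view, the mean ratio was 85.2 in place of 52.3. Bases 66 to 86 of the Mir133b hairpin, which are bases 1 to 21 of the 22 bases of miR-133b-3p and include its seed, are also present in the hairpins of Mir133a-1 and Mir133a-2. A read of miR-133b-3p that ends before its last base therefore fits 3 places, and the tables have a separate row for reads mapped to several places. Such reads are taken here as not counted on genes, an assumption that no source used here states and on which every statement about assignable reads rests. Its effect on the Mir133b count and on the ratio was not tested.

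**Figure D1:**
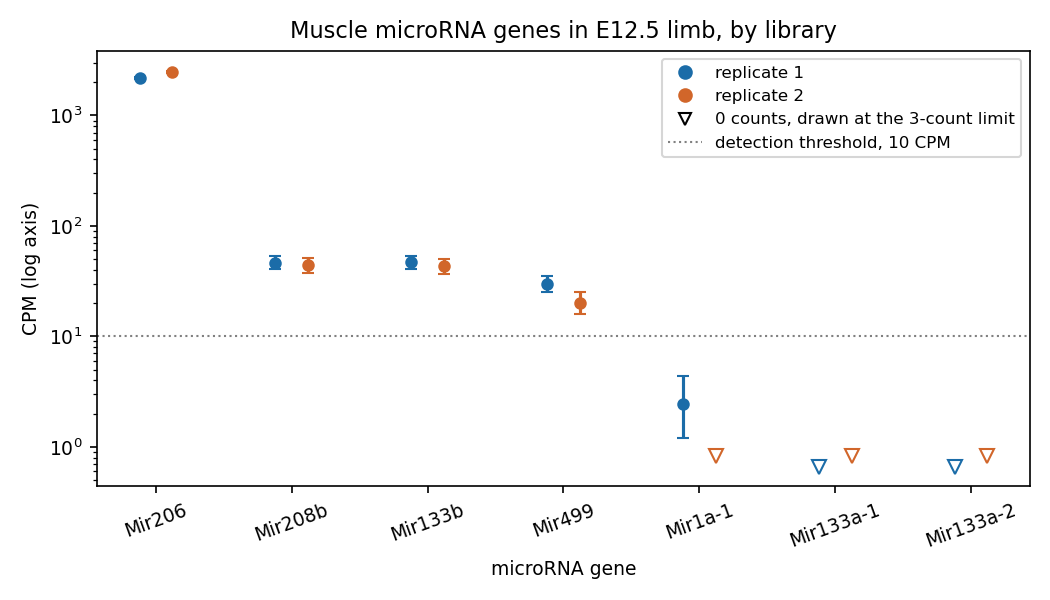
CPM of the 7 muscle microRNA genes (log axis) in replicate 1 and replicate 2, with 95% exact intervals of counting error as bars. Open triangles mark 0 counts and stand at the level of 3 counts, a fixed limit. Mir206 stands at 2196 and 2498 CPM, Mir208b, Mir133b and Mir499 lie between 20.3 and 46.8 CPM, and the other 3 lie under the detection threshold of 10 CPM.

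Mir208b and Mir499, the myosin-hosted members, were both present at a low level. Mir208b lies in an intron of Myh7, the slow and fetal myosin heavy chain gene (chromosome 14, 54975700 to 54975776, minus strand). It gave 210 counts (46.4 CPM, 40.3 to 53.1) in replicate 1 and 159 counts (44.1 CPM, 37.5 to 51.5) in replicate 2, a mean of 45.3 ± 1.6 CPM. Mir499 lies in an intron of Myh7b, a related myosin gene (chromosome 2, 155622880 to 155622958, plus strand). It gave 136 counts (30.1 CPM, 25.2 to 35.5) in replicate 1 and 73 counts (20.3 CPM, 15.9 to 25.5) in replicate 2, a mean of 25.2 ± 6.9 CPM. The 2 libraries were close for Mir208b and stood apart by more for Mir499. Mir208b exceeded Mir499 in both libraries, by 1.54 times (95% interval 1.24 to 1.93) in replicate 1 and 2.18 times (1.64 to 2.91) in replicate 2, and the difference between the libraries in this ratio had a two-sided Fisher's exact p of 0.0636. Together the myosin-hosted members held 70.4 ± 8.5 CPM, against 2393 ± 209 CPM for the 5 other members, nearly all of it Mir206.

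By counts on genes, which leave out reads mapped to several places under that assumption, the members had this order. Mir206 stood 47.3 times above Mir208b in replicate 1 and 56.6 times in replicate 2. Mir208b and Mir133b could not be put in order: replicate 1 placed Mir133b higher and replicate 2 placed Mir208b higher, with a Mir208b to Mir133b ratio of 0.991 (95% interval 0.815 to 1.20) and 1.02 (0.812 to 1.28). Mir499 came below both in each library, and Mir1a-1, Mir133a-1 and Mir133a-2 came last, where the 3 cannot be ordered.

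Mir1a-1 and the Mir133a genes were close to absent among the reads that could be assigned. Mir1a-1 (chromosome 2, 180389048 to 180389124, plus strand, no annotated gene overlapping it) gave 11 counts in replicate 1, or 2.43 CPM (1.21 to 4.35), and 0 in replicate 2. Mir133a-2, 9254 bases downstream on the same strand (180398379 to 180398482), gave 0 counts in both libraries. Mir133a-1 (chromosome 18, 10782909 to 10782976, minus strand, in an intron of Mir133a-1hg and opposite to an intron of Mib1) also gave 0 on its own strand and 1 count on the opposite strand in replicate 1. A count of 0 allows up to 3 counts, which is 0.663 CPM in replicate 1 and 0.832 CPM in replicate 2.

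These 3 genes are the members with the longest shared sequence. Mir133a-1 and Mir133a-2 have a run of 31 nucleotides in common, above the size range of the sequenced RNA. Mir1a-1 and its copy Mir1a-2 have 28 nucleotides in common, at bases 45 to 72 of the 77-nucleotide Mir1a-1 hairpin. Its 5p arm lies outside that run, at bases 10 to 32, and has at most 14 nucleotides in a row in common with another hairpin, so reads of the 5p arm can be assigned to Mir1a-1 while reads from within the shared run cannot. Which arm gave the 11 counts is not recorded in the tables. The rows of reads mapped to several places held 2892656 reads in replicate 1 (27.2% of all reads) and 2310423 in replicate 2 (23.7%), and how many of them came from miR-1 or miR-133 was not tested. The low counts of Mir1a-1, Mir133a-1 and Mir133a-2 therefore do not show whether miR-1 and miR-133a were low in the limb.

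**Figure D2:**
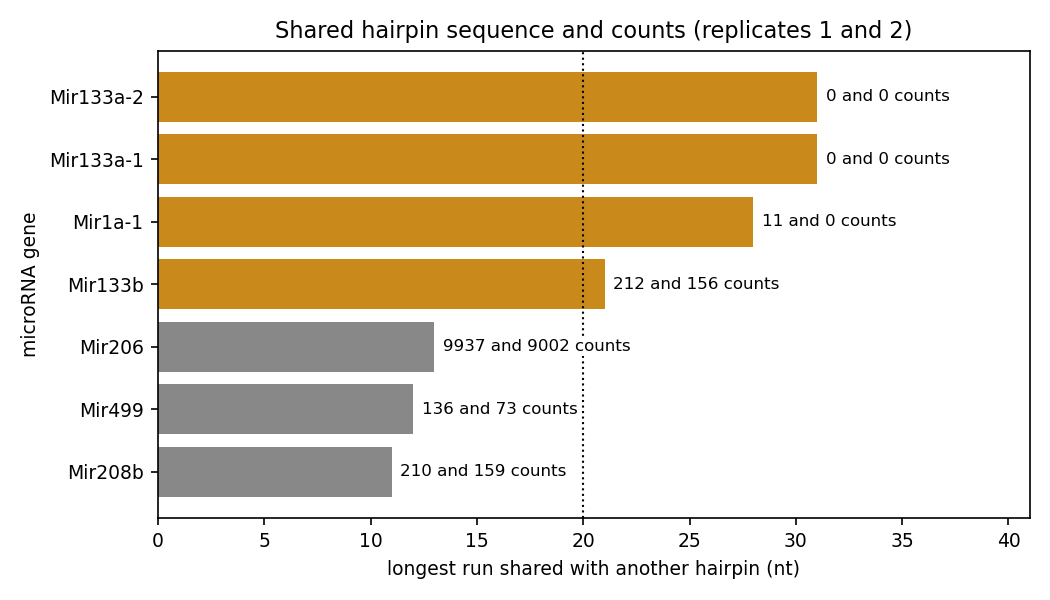
Longest run of nucleotides common to each member's hairpin and any other microRNA hairpin at a different locus (bars), with its counts in replicates 1 and 2 beside the bar; the dotted line marks 20 nucleotides. The 3 members with 0 or near 0 counts have the longest runs, 28 to 31 nucleotides, Mir133b has 21, and Mir206, Mir499 and Mir208b have 11 to 13.

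With single-copy genes separated from multi-copy genes, the 3 members with no shared stretch of 20 nucleotides (Mir206, Mir208b and Mir499) were all detected (at least 10 CPM in each library) and together held 2417 ± 205 CPM. Of the 4 members with such a stretch, Mir133b alone was detected, and the 4 together held 46.3 ± 4.2 CPM. In all, 4 of the 7 members were detected, beside 14.5% of all gene rows (286 of 1973). Over all gene rows, 22.7% of the 965 matched genes with no shared stretch were detected, and 7.21% of the 929 with one. The median level was 25.2 CPM over the members and 0 over all gene rows, of which 1256 had no count in either library. All 7 members together held 0.232% of the gene counts in replicate 1 (95% interval 0.228 to 0.237) and 0.261% in replicate 2 (0.255 to 0.266), a mean of 0.246% ± 0.020.

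**Figure D3:**
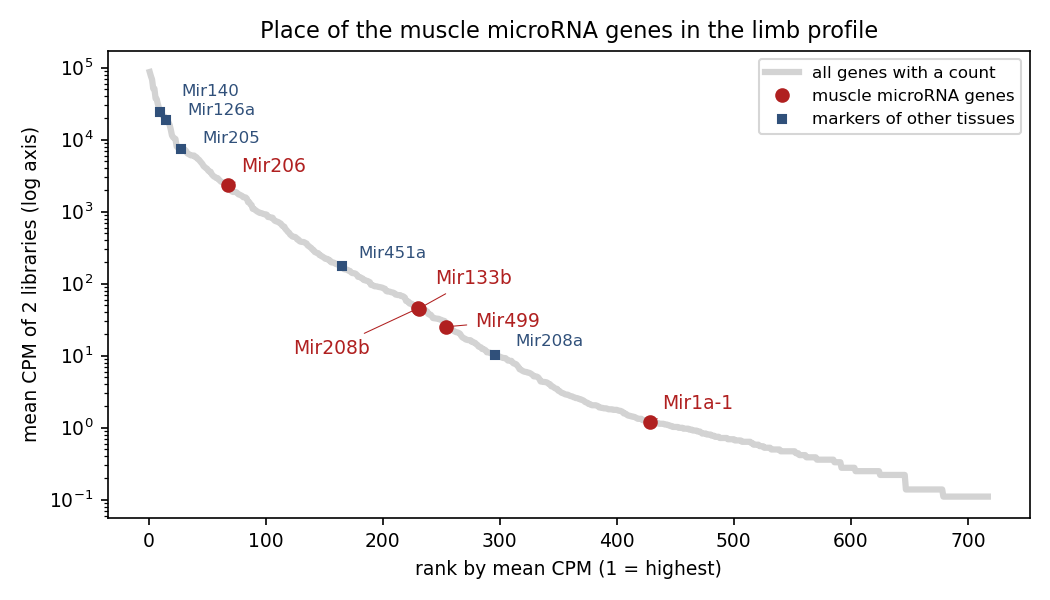
Mean CPM over the 2 libraries (log axis) against rank for all genes with a count (grey line), with 5 muscle microRNA genes (circles) and markers of other tissues (squares); the Mir133a genes had no count and are not drawn. Mir206 stands at rank 68, Mir208b at 230, Mir133b at 231, Mir499 at 254 and Mir1a-1 at 428.

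Beside the highest listed microRNA of cartilage, of vessels and of ectoderm, Mir206 was lower in both libraries. Mir140, the cartilage microRNA, stood at 24621 CPM in replicate 1 and 23178 CPM in replicate 2, which is 11.2 times (95% interval 11.0 to 11.4) and 9.28 times (9.08 to 9.49) the count of Mir206. Mir126a, the endothelial microRNA, exceeded Mir206 by 8.44 and 7.77 times, and Mir205, a microRNA of the ectoderm, by 3.41 and 2.93 times. Each ratio was lower in replicate 2, with two-sided Fisher's exact p-values of 3.62e-35 for Mir140, 1.00e-07 for Mir126a and 1.13e-19 for Mir205. These p-values cover counting error between 2 libraries only, and the 3 ratios share the Mir206 count, so they are not separate results. Other genes of the same tissue lists stood on both sides of Mir206 in mean level. Mir143 (5260 CPM), Mir203 (4587 CPM) and Mir429 (3712 CPM) were above it. Mir455 (1713 CPM), Mir200c (1585 CPM), Mir200b (982 CPM), Mir200a (313 CPM), Mir141 (196 CPM) and Mir145a (75.0 CPM) were below it. Reads counted for different microRNAs compare read numbers, not molecules, since recovery of each sequence was not measured.

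Genes closest to the detected members in level were the 2 genes next above and the 2 next below in mean log2(CPM + 1), and closeness in level is all that this measure shows. Around Mir206 these were Mir181b-2 (2421 ± 723 CPM) and Mir381 (2356 ± 119 CPM) above and Mir181a-1 (2132 ± 14 CPM) and Mir708 (2094 ± 214 CPM) below. Around Mir208b and Mir133b stood Mir702 (46.1 ± 1.7 CPM), Mir29c (45.4 ± 1.7 CPM), Mir666 (44.5 ± 2.3 CPM) and Mir18b (43.9 ± 1.7 CPM). Mir19b-1 (25.1 ± 1.8 CPM), Mir384 (25.1 ± 6.8 CPM), Mir1247 (24.8 ± 7.6 CPM) and Gm26117 (24.5 ± 6.0 CPM) surrounded Mir499. The mean ± SD range of each of these neighbours overlapped that of its member. Since the genes were picked for closeness and each SD rests on 2 libraries, this overlap does not decide their order. Mir181a-1 was below Mir206 in both libraries, while Mir181b-2, Mir381 and Mir708 were above it in replicate 1 and below it in replicate 2. Mir181b-2, Mir181a-1, Mir708, Mir29c and Mir19b-1 share a stretch of 20 nucleotides with another hairpin, so their levels can leave out reads as well.

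Unequal levels of neighbouring microRNA genes were common in this tissue. In the tables, 87 pairs of adjacent genes lay on the same strand within 10 kb of each other with both genes detected. Their higher gene exceeded the lower by a median of 6.84 times, and for 90% of the pairs by at most 73.6 times. The ratio of mean levels of Mir206 and Mir133b, 52.1, was exceeded by 15 pairs. Among the 56 pairs with no shared stretch, where reads of both genes can be assigned, the median was 6.53 times, 90% of the pairs lay within 32.9 times, and 4 pairs exceeded the Mir206 to Mir133b ratio, one of them Mir30d over Mir30b (4293 and 79.2 CPM) at a gap of 3697 bases. Neighbours need not be cut from a single transcript, and the annotation was not used to require one. The pairs are not independent. A gene enters a pair with each of its neighbours, and many pairs come from the stretch of chromosome 12 between Mir770 and Mir3072. The 87 pairs include Mir206 with Mir133b.

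**Figure D4:**
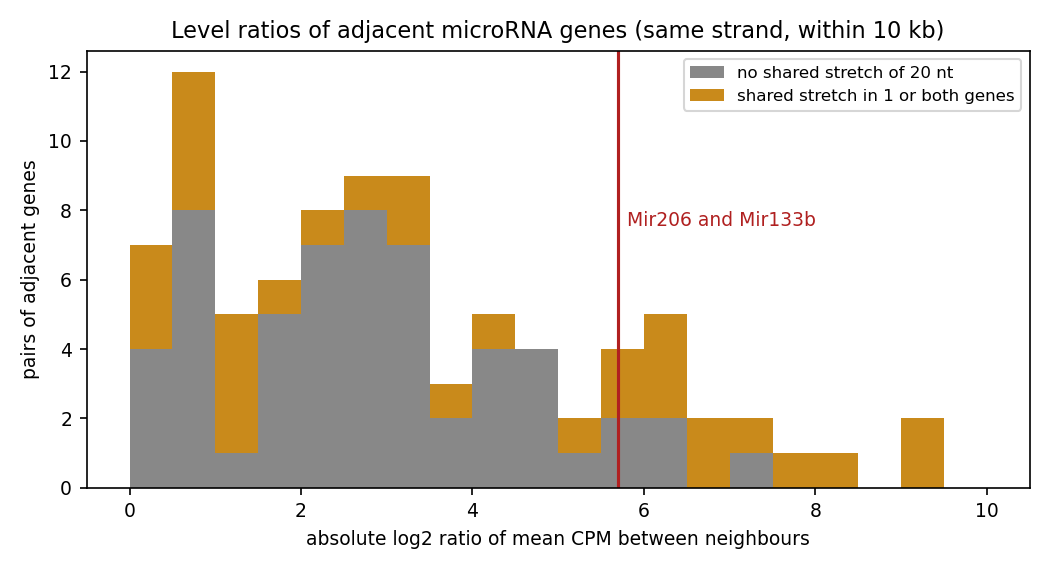
Number of pairs of adjacent, detected microRNA genes by the absolute log2 ratio of their mean CPM (same strand, at most 10 kb apart, 87 pairs); gray marks pairs with no shared stretch of 20 nucleotides and ochre the others. The Mir206 and Mir133b pair, at 5.70, lies in the upper tail, with 15 pairs beyond it.

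Between the 2 libraries, Mir206 was higher in replicate 2 by a log2 ratio of 0.19 (SE of counting 0.021). A two-sided exact binomial test on the counts, with Benjamini-Hochberg adjustment over the 436 genes with 10 or more counts in the sum, gave an adjusted p of 6.17e-18 for Mir206. Mir499 was lower in replicate 2 by a log2 ratio of -0.56 (SE 0.21), with an adjusted p of 0.0171 in the exact binomial test, and Mir1a-1 had an adjusted p of 0.00503 in that test. Mir133b and Mir208b had log2 ratios of -0.11 (SE 0.15) and -0.07 (SE 0.15), and adjusted p-values of 0.619 and 0.747 in the exact binomial test. The test thus called 3 of the 5 members tested, beside 41.7% of all genes tested (182 of 436). No condition differs between the libraries, and this test allows for counting error only. With the spread between the replicates included, edgeR's negative binomial exact test called 0 of 436, though 25 genes had an unadjusted p under 0.05. Its dispersion was estimated from the same 2 libraries, which by construction leaves few differences beyond it. It gave Mir206 an adjusted p of 1.00, Mir499 0.956 and Mir1a-1 0.340.

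The library difference of Mir206 was close to that of other well-counted genes. Over the 189 genes with a mean of at least 100 CPM, the median absolute log2 ratio was 0.18 and 90% lay within 0.53. Over the 109 genes from 10 to 100 CPM, the median was 0.25 and 90% lay within 0.67, and the size of the Mir499 ratio, 0.56, lies between these values. For Mir133b and Mir208b the ratios were smaller than that median. The rank of Mir206 was 68 in replicate 1 and 64 in replicate 2, and that of Mir499 was 250 and 263.

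**Figure D5:**
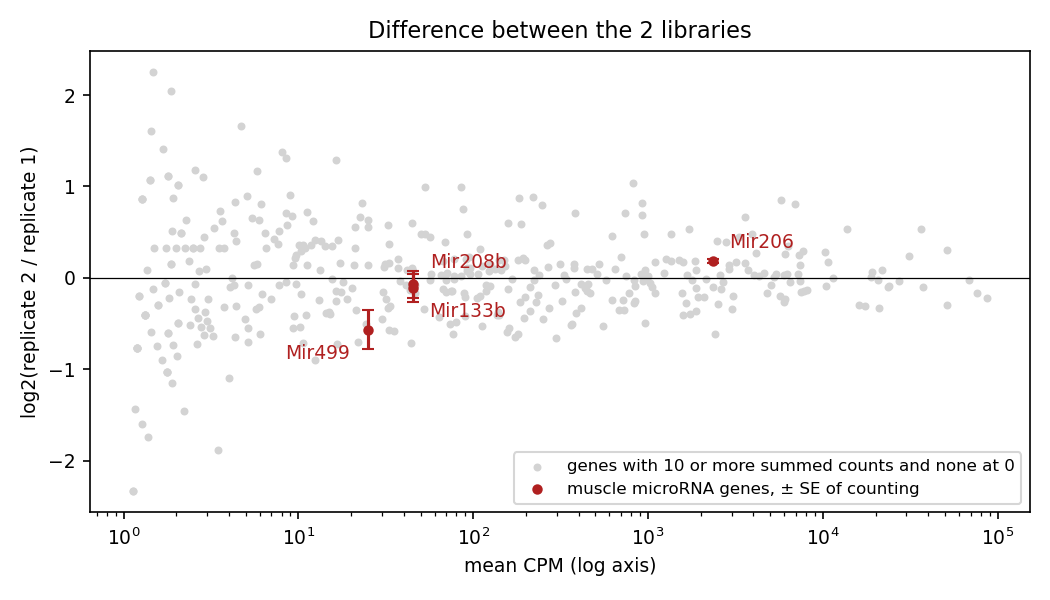
Log2 ratio of replicate 2 over replicate 1 against mean CPM (log axis) for genes with 10 or more counts in the sum and none at 0 (gray), with 4 muscle microRNA genes and their counting SE (red); Mir1a-1 is left out because it had 0 counts in replicate 2. Mir206 lies at 0.19, Mir208b at -0.07, Mir133b at -0.11 and Mir499 at -0.56.

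Relatives of the members outside the 7 genes gave low counts among the reads assigned to a single gene. Mir208a, in an intron of the heart myosin gene Myh6 and 26557 bases from Mir208b on chromosome 14, gave 42 counts (9.28 CPM, 6.69 to 12.5) in replicate 1 and 41 counts (11.4 CPM, 8.16 to 15.4) in replicate 2. This level lay around the detection threshold and below Mir208b, whose count was 5 times as high in replicate 1 (95% interval 3.58 to 7.14) and 3.88 times in replicate 2 (2.74 to 5.61). The hairpins of Mir208a and Mir208b have at most 10 nucleotides in a row in common, so whole mature reads can be told apart. Mir208a is known as a heart muscle microRNA, and its part in the level of the myosin-hosted members was not tested; Mir208b, Mir499 and Mir208a summed to 85.7 CPM in replicate 1 and 75.7 CPM in replicate 2.

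Mir1b, which overlaps Mir1a-2 on the other strand, gave 8 and 14 counts on its own strand and 1 and 2 on the strand of Mir1a-2. Mir133c gave 0 counts in both libraries. Mir486, in an intron of Ank1 and known from muscle and red blood cells, gave 17.5 and 27.7 CPM. Of the 4 relatives with a row, Mir486 alone was detected. Mir1a-2, Mir486b and Mir3107 had no row of their own, so their levels are not known. Mir1b shares a stretch of 20 nucleotides with another hairpin on either strand, so its count can leave out reads. Mir486 was not compared with Mir3107, which overlaps it, so reads that fit both were not assessed.

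Among 23 genes listed for roles in muscle precursors or differentiation but found in many cell types, 21 had a row and 17 were detected, beside the 14.5% of all gene rows. They held 13.1% ± 0.74 of the gene counts, most of it from Mir322 (68344 ± 659 CPM), which acts in cell cycle exit of myoblasts, and Mir214 (51056 ± 7523 CPM), which is also abundant in limb mesenchyme. Mir27b, which targets Pax3 in muscle precursors, stood at 2916 ± 206 CPM and Mir503, from the locus of Mir322, at 2598 ± 156 CPM, both near the level of Mir206. Mir31, known to restrain Myf5 in satellite cells, stood at 92.0 ± 4.8 CPM, above Mir208b. Mir489, a microRNA of quiescent satellite cells, gave 1 count in replicate 1 and 0 in replicate 2. The median of this list was 159 CPM, and 12 of the 21 genes share a stretch with another hairpin. Which cells these reads came from was not measured.

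Markers of the labelled tissue were present. The Hox-cluster genes of limb position, Mir196b, Mir10b, Mir10a and Mir615, were all detected, at means of 3302 to 86831 CPM. The red blood cell genes Mir451a and Mir144 summed to 240 CPM in replicate 1 and 152 CPM in replicate 2, and the liver gene Mir122 stood at 17.0 and 13.0 CPM. Of 5 neural genes with a row, all of them multi-copy, 4 had no count and Mir9-3 gave 5 and 4 counts. Since 791 of the 929 gene rows with a shared stretch had no count in either library, these neural rows say little about neural tissue. The part of heart, blood or liver tissue in the member levels was not tested.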

How the data were processed

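The deposited tables hold raw read counts per microRNA gene, 1 table per library. Per the README files deposited with them, reads were placed on mm10 and counted over GENCODE M4. No aligner, counter or version is named here: not given in the sources used here. In every gene row the first count column equalled the sum of the other columns, read as the gene's own and the opposite strand, and own-strand counts were used. Gene totals were 4525636 counts (replicate 1) and 3604284 (replicate 2), and 1 count was worth 0.221 and 0.277 CPM. Rows that name no gene, 57.5% and 63.0% of the reads, stayed out of totals and tests.

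Identifiers were matched without version to GENCODE M21 (GRCm38, 1894 of 1973). For 6 of the 7 members the version was the same; Mir133a-1 had a newer one, so its counted interval can differ from the coordinates given. Hairpins of 2202 microRNA genes were compared for shared runs of 20 nucleotides on either strand, leaving out overlapping genes. Longest runs were taken on the given strand.

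CPM used own-strand gene counts, and log2 ratios had 0.5 counts added per library. Exact tests were run in SciPy 1.17.1, and the negative binomial test in edgeR 4.0.16 (R 4.3.3) with the common dispersion of the same replicates (coefficient of variation 16.4%). The binomial test was first tested on simulated counts that held counting error alone. That check does not cover the further spread between these 2 libraries. Alternatives were other scalings (TMM, DESeq2 1.42.0 size factors, all reads), both strands, other thresholds and filters, and single libraries. The members and lists were chosen with earlier results of these data known. Genes named are the members, the 2 genes above and below each detected member in level, genes sharing a main seed, and the fixed lists. The labels call the libraries biological replicates from separate pools and do not relate them to litters.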

Additional observations from a re-analysis of the deposited data

Results flagged for a closer look

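Mir486 carried counts on the strand opposite to the gene, which the comparisons did not use. They were 19 in replicate 1 and 5 in replicate 2, above the fixed limit of 3 counts. Mir3107, which has no row of its own, overlaps Mir486 on that strand. Among the 7 members the opposite strand held 1 count, for Mir133a-1 in replicate 1.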

How the results depend on the processing

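The level of Mir206 moved by less than its SD under TMM scaling, DESeq2 size factors and both strands, was 2196 to 2498 CPM in single libraries, and was 929 CPM with all reads as the total. Both scalings keep about the same average library size, so a mean over the 2 libraries can move little by construction. Their small effect is no sign of stability. The member share of 0.246% became 0.0976% of all reads and 0.150% of gene counts plus reads mapped to several places, since both add reads to the total. At 50 CPM and at 100 CPM in both libraries, 1 member, Mir206, was detected. The binomial test called 2 to 3 members under the scaling, strand and filter alternatives, and Mir1a-1 was not tested at 100 summed counts. The edgeR negative binomial test called 0 members and 0 genes in all, in place of 3 and 182. The Mir206 to Mir133b ratio per hairpin length, added after the data were seen, was 85.2. With all reads as the total, Mir133b, Mir208b and Mir499 had means over the 2 libraries of 18.0, 18.0 and 10.1 CPM. The mean of Mir499 then lay close to the threshold of 10 CPM, and detection in both libraries was not counted with that total. With both strands Mir133a-1 stood at 0.108 CPM. With 2 libraries an SD rests on 1 difference, so leaving out a library moves a mean by less than 1 SD by construction and is no sign of stability. Depth limits the members with few or no counts, and the part of reads mapped to several places in the multi-copy members was not tested.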
